A study of Mus musculus with 6 samples.

Results

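The 9 genes described here encode 3 cerebellins (Cbln1, Cbln2, Cbln4), 4 C1q-like proteins (C1ql1, C1ql2, C1ql3, C1ql4) and 2 neurexins (Nrxn2, Nrxn3). They were taken by gene symbol from the 32285 features of a single-cell RNA sequencing study of mouse autonomic ganglia, whatever their level, and all 9 were present in all 6 libraries. All libraries came from pups of both sexes at postnatal day 5 that carry a Cre transgene and a tdTomato reporter at the Rosa locus that Cre switches on. Whole stellate, coeliac and lumbar ganglia (all sympathetic) and the whole sphenopalatine ganglion (parasympathetic) gave 1 library each, and the whole pelvic ganglion gave 2. The stellate, sphenopalatine and first pelvic libraries made up round 1 (10x Genomics 3′ chemistry version 2, 10000 cells loaded), and the coeliac, lumbar and second pelvic libraries made up round 2 (version 3, 5300 cells loaded). No sort of tdTomato cells is described, and the number of pups behind each library is not given in the sources used here.

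Cerebellins and C1q-like proteins are secreted, share the globular domain of complement C1q, and act as organisers of synapses. A cerebellin released by one cell can bind a neurexin on the presynaptic membrane and a delta glutamate receptor such as Grid1 on the other side, which holds both membranes together. C1q-like proteins bind the adhesion receptor Adgrb3, and some of them bridge neurexins to kainate receptors. Neurexins are presynaptic adhesion proteins that also bind neuroligins, Lrrtm proteins and neurexophilins. Cbln1 is best known from the parallel fibres of the cerebellum and C1ql1 from its climbing fibres.

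On the mouse genome GRCm38, in the GENCODE annotation, the cerebellin genes lie at chr8:87468405-87472609 on the minus strand (Cbln1), chr18:86711110-86718283 on the plus strand (Cbln2) and chr2:172036233-172043466 on the minus strand (Cbln4). The C1q-like genes lie at chr11:102939264-102946688 on the minus strand (C1ql1), chr1:120340582-120343174 on the plus strand (C1ql2), chr2:13003457-13011806 on the minus strand (C1ql3) and chr15:99084086-99087817 on the minus strand (C1ql4). The neurexin genes are far longer and lie at chr19:6418731-6544169 (Nrxn2) and chr12:88722876-90334935 (Nrxn3), both on the plus strand. All 9 are protein-coding.

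After the filters on genes per droplet and mitochondrial reads, 21442 of 30777 droplets were kept, of which 7052 were taken as neurons (237 to 2724 per library) and 8468 as glia (574 to 2899 per library), each by marker genes that are not among the 9. Depth differed between the classes and the rounds: the median UMI count per cell was 26651 to 108598 in neurons and 3522 to 12151 in glia across the libraries. Between 7.85% and 13.9% of the droplets of a library lay among simulated doublets, and pairs of libraries shared 0 to 49 cell barcodes. The ganglion labels were checked on transmitter genes. Th, the rate-limiting enzyme of catecholamine synthesis, stood at 994, 658 and 452 CPM (counts of unique molecules per 1000000) in stellate, coeliac and lumbar neurons, at 73.9 and 53.2 in the pelvic libraries and at 1.85 in sphenopalatine neurons. Chat, the enzyme that makes acetylcholine, stood at 24.7 CPM in sphenopalatine neurons and 56.5 and 39.3 in the pelvic libraries, against 0.0556 to 1.04 in the sympathetic ones. Levels are given as such CPM over the summed neurons or glia of a library, with exact Poisson 95% intervals, and shares are the percent of cells with at least 1 UMI, with Wilson 95% intervals. Both intervals cover counting error only, and with 1 library for each ganglion but the pelvic one no test between single ganglia was run.

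**Figure D1:**
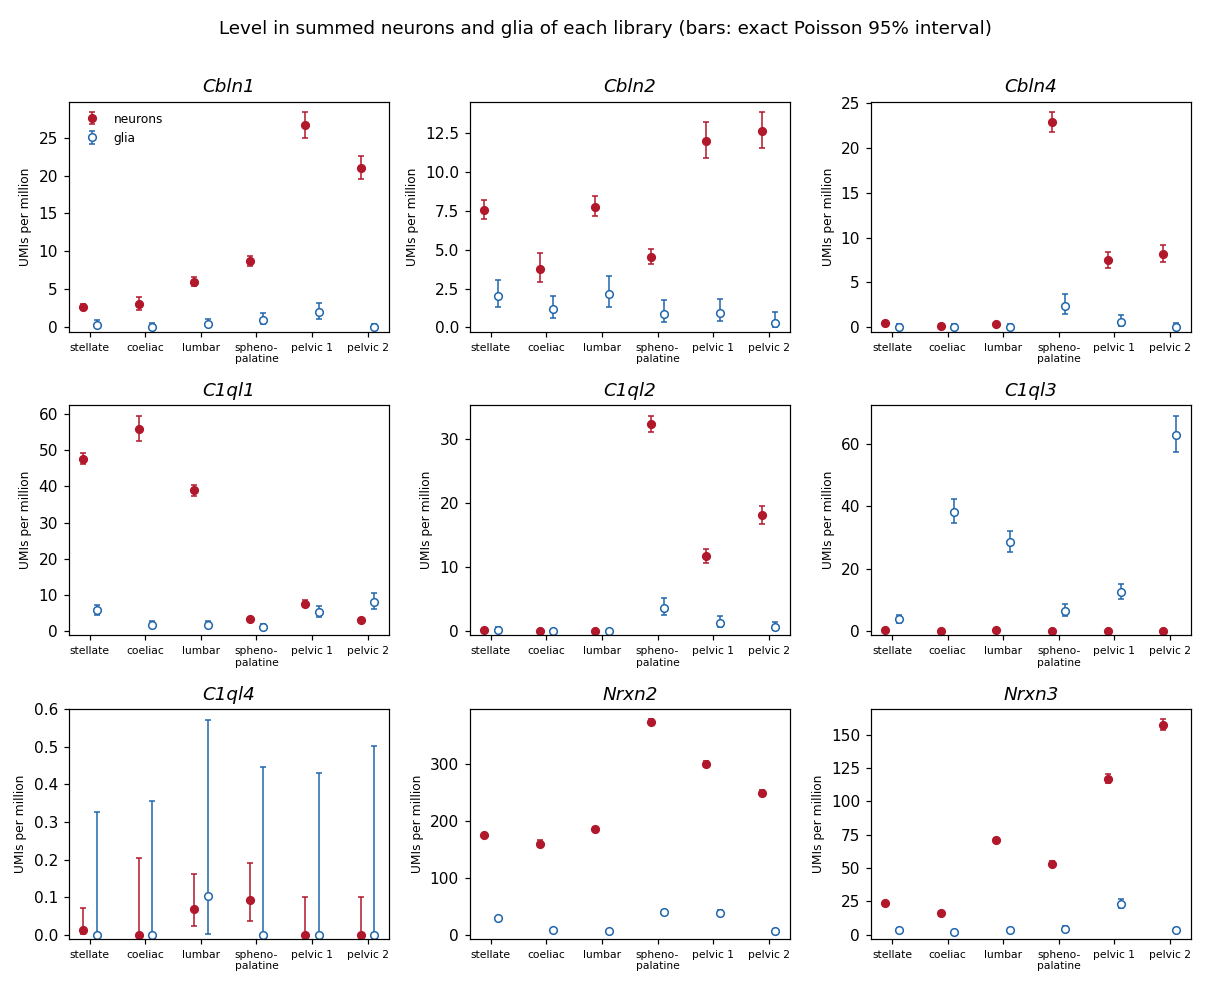
Level of each gene, in CPM, in the summed neurons and the summed glia of each library, with exact Poisson 95% intervals. Cbln4 and C1ql2 were high in the sphenopalatine and pelvic libraries and near 0 in the sympathetic ones, C1ql1 had the opposite order, and C1ql3 was higher in glia than in neurons in every library.

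Cbln1 was highest in pelvic neurons. Its level was 26.6 (24.96 to 28.3) and 21.0 (19.6 to 22.6) CPM in the neurons of pelvic libraries 1 and 2, 8.76 (8.11 to 9.45) in sphenopalatine neurons, and 6.03 (5.47 to 6.62), 3.06 (2.30 to 3.98) and 2.67 (2.32 to 3.06) in lumbar, coeliac and stellate neurons. The pelvic libraries did not overlap the others, and the coeliac and stellate intervals overlapped each other. Within round 1 the pelvic level was 3.04-fold (2.75 to 3.36) that of sphenopalatine and 9.96-fold (8.58 to 11.6) that of stellate neurons, and within round 2 it was 3.49-fold (3.10 to 3.94) that of lumbar and 6.88-fold (5.23 to 9.22) that of coeliac neurons. At least 1 UMI of Cbln1 was seen in 52.7% and 64.9% of the pelvic neurons of the 2 libraries (58.8% ± 8.62, SD, n = 2). Among pelvic glia the share was 0.566% in library 1 and 0 of 574 cells in library 2, where a floor of 3 cells would be 0.523%. When each neuron was thinned to 4000 UMIs, the shares were 8.86% and 7.16% in the pelvic libraries and 0.962% to 3.43% elsewhere, so the pelvic libraries were the highest at equal depth too.

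Cbln2 differed least between ganglia of the secreted proteins. Pelvic neurons held 12.02 (10.9 to 13.2) and 12.6 (11.5 to 13.8) CPM, lumbar 7.78 (7.15 to 8.45), stellate 7.56 (6.97 to 8.19), sphenopalatine 4.55 (4.08 to 5.06) and coeliac neurons 3.78 (2.94 to 4.79). The pelvic libraries agreed within counting error, as did lumbar with stellate and sphenopalatine with coeliac. Its UMIs were concentrated in few neurons of the sympathetic ganglia. In stellate neurons 600 UMIs came from 202 of 2724 cells, whereas the 212 UMIs of Cbln1 there came from 196 cells. Several UMIs per positive cell were also seen in pelvic neurons, where 441 and 467 UMIs of Cbln2 came from 192 of 893 and 123 of 365 cells.

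Cbln4 separated the ganglia sharply. It stood at 22.8 (21.8 to 23.9) CPM in sphenopalatine neurons, 7.44 (6.58 to 8.38) and 8.15 (7.26 to 9.13) in pelvic neurons, and at 0.504 (0.360 to 0.686), 0.359 (0.235 to 0.526) and 0.111 (0.0135 to 0.402) in stellate, lumbar and coeliac neurons. The last of these rests on 2 UMIs in 1 cell. Sphenopalatine neurons therefore held 45.3-fold (33.1 to 63.7) the stellate level and 3.07-fold (2.70 to 3.50) the level of the first pelvic library, all of round 1. At least 1 UMI was seen in 40.0% (37.9 to 42.3) of sphenopalatine neurons and in 19.1% and 31.8% of pelvic neurons, and in 1.27% of sphenopalatine glia, the highest share among the glia of the 6 libraries.

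C1ql2 followed the same order as Cbln4. Sphenopalatine neurons held 32.3 (31.1 to 33.7) CPM and pelvic neurons 11.7 (10.6 to 12.9) and 18.1 (16.7 to 19.5), while the sympathetic ganglia were almost without it: 11 UMIs in 2724 stellate neurons, 3 UMIs in 930 lumbar neurons and none in 237 coeliac neurons. Pelvic library 2 was thus at least 108-fold higher than coeliac neurons when the latter are set to 3 counts, and sphenopalatine neurons were 233-fold (130 to 468) higher than stellate neurons. The stellate level of 0.139 CPM was no higher than that of the glia of the same ganglion (0.178). The 2 pelvic libraries differed from each other by 1.54-fold (1.37 to 1.75).

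The 250 bases upstream of the RefSeq start of C1ql2 and Cbln4 are printed because these genes had like profiles across 14 neuron sums (Pearson r = 0.795, from 5 pelvic clusters in each of 2 libraries and 4 other ganglia, where clusters of a library share its depth). Cbln1 and Nrxn3 had a higher r (0.841), and among pelvic clusters C1ql2 and Cbln4 had their highest levels in different ones. Capitals mark the only match in each printed sequence to CANNTG, the E-box motif of basic helix-loop-helix factors. It reads alike on both strands. Sequences are from RefSeq GRCm38.p6 on the strand of the gene, C1ql2 from chr1:120340332-120340581 and Cbln4 from chr2:172043467-172043716.
C1ql2: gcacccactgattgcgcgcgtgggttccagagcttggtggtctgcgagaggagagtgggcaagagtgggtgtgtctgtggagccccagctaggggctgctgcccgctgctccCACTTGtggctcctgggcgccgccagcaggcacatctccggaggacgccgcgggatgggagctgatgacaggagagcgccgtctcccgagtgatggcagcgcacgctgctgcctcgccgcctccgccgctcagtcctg
Cbln4: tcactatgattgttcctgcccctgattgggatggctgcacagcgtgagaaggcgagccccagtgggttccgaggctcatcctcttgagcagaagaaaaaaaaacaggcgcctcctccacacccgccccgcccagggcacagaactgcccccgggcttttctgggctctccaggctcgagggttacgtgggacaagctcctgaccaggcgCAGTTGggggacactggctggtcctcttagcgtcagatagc
An E-box of this form was present in 66.2% of 32851 RefSeq promoters of the same length, so most promoters hold one. The homeodomain core TAATTA, which also reads alike on both strands, was in neither and in 4.84% of all promoters.

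C1ql1 had the reverse order. Coeliac, stellate and lumbar neurons held 55.9 (52.5 to 59.5), 47.7 (46.2 to 49.2) and 38.9 (37.5 to 40.3) CPM, against 7.52 (6.66 to 8.46) and 2.90 (2.38 to 3.50) in pelvic neurons and 3.25 (2.86 to 3.68) in sphenopalatine neurons. No sympathetic library overlapped a pelvic one, and the second pelvic library could not be told from the sphenopalatine library by counting error. At least 1 UMI was seen in 53.8%, 55.7% and 56.3% of stellate, coeliac and lumbar neurons, and in 10.2% to 10.97% of the neurons of the other 3 libraries. Glia of the 6 libraries held 0.967 to 8.05 CPM of C1ql1. In pelvic library 2 the glial level of 8.05, from 59 UMIs in 11 cells, was above the neuronal one. Over all libraries, 7 cells called glia belonged to a cluster led by Chga and Chgb, where C1ql1 stood at 449 CPM. Their part in the glial levels was not tested. The pelvic libraries differed in this gene, the ratio of library 2 to library 1 being 0.385 (0.305 to 0.483).

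The remaining C1q-like genes were barely detected in neurons. C1ql3 gave 39 UMIs in 31 of 7052 neurons, at 0 to 0.276 CPM, and C1ql4 gave 13 UMIs in 12 neurons. C1ql4 was also nearly absent from glia, with 1 UMI in 8468 cells, so that its level could not be compared at this depth.

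Over all 7052 neurons the neurexin genes were the most widely read of the set, with a UMI in 6805 (Nrxn2) and 4413 (Nrxn3). C1ql1 came next with 2454, and its level was above that of Nrxn3 in stellate and coeliac neurons. Nrxn2 had at least 1 UMI in 93.2% to 99.6% of the neurons of each library, and its level was highest in sphenopalatine neurons at 375 CPM, then 301 and 249.02 in pelvic and 186, 175 and 160.4 in lumbar, stellate and coeliac neurons. The libraries of a division did not overlap those of another, although the whole range of Nrxn2 was only from 160.4 to 375. Nrxn3 varied more, with a UMI in 40.9% to 84.1% of the neurons of a library. Its level was 117 and 157 CPM in pelvic neurons, 70.6 in lumbar, 53.2 in sphenopalatine, 23.5 in stellate and 15.96 in coeliac neurons. The lumbar level was 3.00-fold (2.85 to 3.17) that of stellate neurons, which were of the other round, and the coeliac level was 0.226 (0.200 to 0.254) that of lumbar neurons in the same round.

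Glial cells were set against the neurons of the same library in a fit across all genes (edgeR quasi-likelihood test on UMIs summed per library and class, with library as a block, 12 sums, Benjamini-Hochberg adjustment at 0.05). Of the 9 genes 8 passed the filter on low counts. Cbln4 passed it through the neurons alone and C1ql3 through the glia alone, so both had to differ and are described without a test. The other 6 were all higher in neurons, in a fit in which 37% of 15601 genes were (75.1% differed in either direction). Log2 differences between neurons and glia were 4.15 (SE 0.51) for Cbln1, 3.89 (0.37) for Nrxn2, 3.66 (0.42) for Nrxn3, 3.48 (0.54) for C1ql2 and 2.68 (0.45) for Cbln2, with adjusted p between 3.3e-05 and 0.00084 (edgeR). These genes and Cbln4 (fitted log2 difference 4.14) were higher in the neurons of 6 of 6 libraries, except C1ql2, which was higher in 4 of 6 (no UMI in either class of the coeliac library, and 0.139 against 0.178 CPM in the stellate one). C1ql1 differed by 2.37 (SE 0.90, edgeR adjusted p = 0.040), and this call was lost without any 1 of the stellate, sphenopalatine, coeliac or lumbar libraries (adjusted p 0.065 to 0.12) and in round 2 alone (0.17).

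C1ql3 was the gene of the set that was higher in glia, in a fit in which 38% of genes were. Glia held 3.73, 6.53 and 12.4 CPM in the stellate, sphenopalatine and pelvic libraries of round 1, and 38.3, 28.6 and 63.0 in the coeliac, lumbar and pelvic libraries of round 2. Every glial library lay above every neuronal one, and the fitted log2 difference was -7.22 (SE 0.60). The glia of the pelvic ganglion were the highest of each round, with intervals (10.1 to 15.0 and 57.4 to 69.0) that did not overlap those of the other libraries of the round. The rounds stood apart in this gene: the second pelvic library held 5.09-fold (4.11 to 6.35) the level of the first in glia. At 2000 UMIs per glial cell the shares with a UMI were 0.793% to 2.71% in round 1 and 6.24% to 12.5% in round 2.

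**Figure D2:**
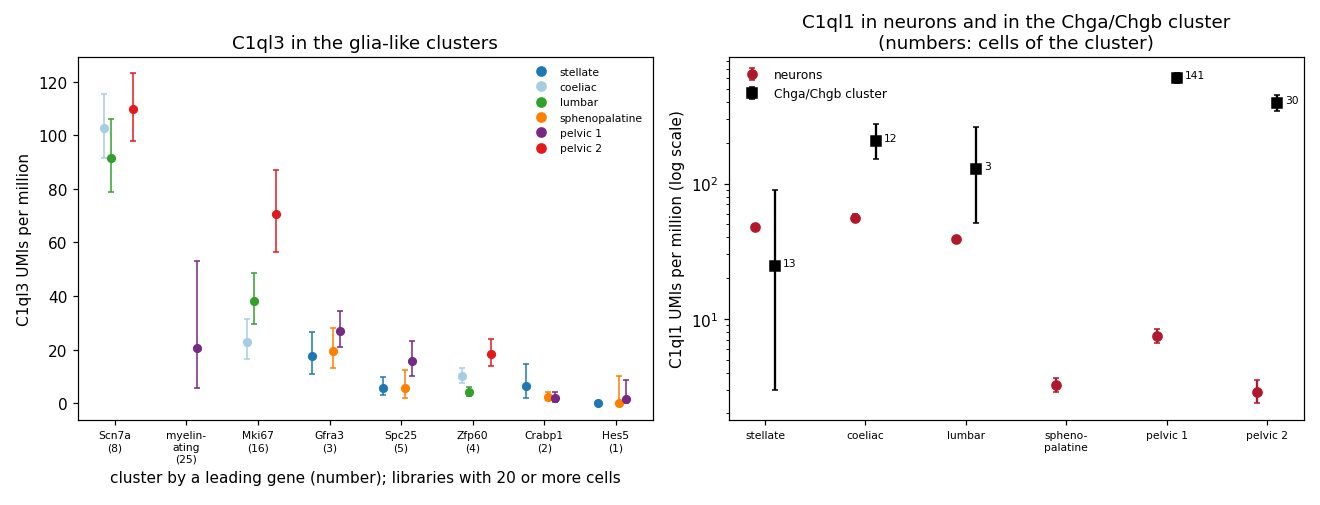
Level of C1ql3 in glial clusters, and of C1ql1 in the summed neurons and in the Chga and Chgb cluster (log scale). Levels are in CPM by library with exact Poisson 95% intervals. C1ql3 stood at 91.6 to 109.9 in the Scn7a cluster of round 2, and C1ql1 at 599 and 394 in the pelvic cells of the Chga and Chgb cluster.

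Within the glia, C1ql3 was uneven. The cells outside the neurons were clustered without these 9 genes, and the cluster values are given as a description. No correction between libraries was made here, and the large glial clusters divided almost wholly by round. A cluster found in 1 round is therefore not shown to be a cell type missing from the other. Leading genes of a cluster were ranked over all genes, these 9 included. A cluster of 716 cells, all from round 2 and led by Scn7a, a sodium channel gene, had C1ql3 among its leading genes, with 103 (91.4 to 115), 91.6 (78.7 to 106) and 109.9 (97.9 to 123) CPM in its coeliac, lumbar and pelvic cells. The 3 libraries overlapped in this cluster, whereas over all glia of round 2 they did not. A cycling cluster of 256 cells of round 2 held 23.0 (16.4 to 31.5), 38.1 (29.5 to 48.5) and 70.7 (56.6 to 87.2) in coeliac, lumbar and pelvic cells. In round 1 the highest of the large glial clusters was one of 1340 cells led by I730030J21Rik and Gfra3, a receptor gene of the GDNF family, at 17.5 (10.97 to 26.5), 19.6 (13.1 to 28.2) and 27.1 (21.0 to 34.4) in stellate, sphenopalatine and pelvic cells. A glial cluster of 1880 cells led by Hes5, a Notch target, held 2 UMIs of C1ql3 in all. In fibroblast-like, endothelial-like, mural-like and macrophage-like cells the level was 0 to 1.84.

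Pelvic against sympathetic neurons was the only pair of divisions with more than 1 library each. The comparison asks how far pelvic neurons differ from those of the sympathetic ganglia. It set 2 pelvic libraries against the stellate, coeliac and lumbar libraries, with round as a covariate, and left out the sphenopalatine library. Each sympathetic ganglion gave 1 library, so the spread includes differences between these ganglia. Most pelvic neurons were cholinergic (760 of 893 and 325 of 365), while sympathetic neurons held much Th and little Chat. Pelvic noradrenergic neurons held 1.59 and 1.85 CPM of Cbln1, 0.199 and 0 of Cbln2, and 0.397 and 0 of Cbln4. They held 9.53 and 27.0 of Nrxn3, 228 and 245 of Nrxn2, and 43.7 and 16.9 of C1ql1. The part of transmitter class in this comparison was not tested. The fit rests on 5 sums with 2 residual degrees of freedom. Of the 7 genes in the fit, C1ql2 passed the filter on low counts through the pelvic libraries alone and so had to differ, and its fitted log2 difference of 7.45 is given without a test. Of the other 6, 4 were higher in pelvic neurons in a fit in which 10.3% of 15715 genes were, and 1 was lower where 8.23% of genes were (18.5% in either direction). Cbln4 was higher by 4.36 (SE 0.37, edgeR adjusted p = 0.00047), and its sympathetic levels were low but reached the filter in the stellate and lumbar libraries. Cbln1 was higher by 2.65 (SE 0.34, edgeR adjusted p = 0.0024) and C1ql1 was lower, at -3.38 (SE 0.33, adjusted p = 0.00077). For Nrxn3 and Nrxn2 the differences were 2.03 (SE 0.53, edgeR adjusted p = 0.037) and 0.63 (SE 0.14, adjusted p = 0.020). Cbln2 was 0.89 higher (SE 0.30), which did not pass (edgeR adjusted p = 0.086), although both pelvic libraries lay above the 3 others.

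**Figure D3:**
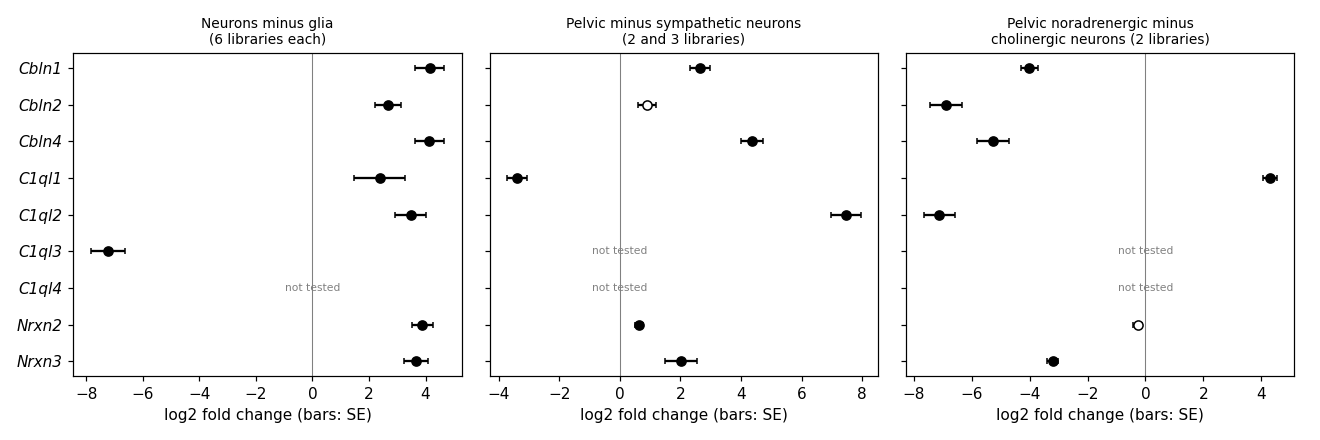
Fitted log2 differences with standard errors for each gene in the 3 fits, with filled points for adjusted p below 0.05 in edgeR. The fits set neurons against glia, pelvic against sympathetic neurons, and pelvic noradrenergic against cholinergic neurons. Filled points carry no test for genes that passed the low-count filter through their higher side alone. These were Cbln4 and C1ql3 in the first fit, C1ql2 in the second, and Cbln2, Cbln4 and C1ql2 in the third. C1ql1 was lower in pelvic than in sympathetic neurons and higher in noradrenergic than in cholinergic pelvic neurons, and Cbln1, Cbln4, C1ql2 and Nrxn3 had the opposite signs.

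Several of these calls were lost when 1 library was left out, which leaves 4 sums. With round as a covariate, a library alone in its round adds nothing to the comparison. The fits without the stellate and without the first pelvic library therefore share 1 contrast and are not separate checks. It sets the second pelvic library against the coeliac and lumbar ones. In both fits Cbln1, Nrxn2 and Nrxn3 no longer passed, and C1ql1 and Cbln4 still did. Without the second pelvic library, which leaves the first pelvic against the stellate library, Nrxn2 and Nrxn3 were lost. The fitted differences kept their sign without any 1 library, at 2.19 to 3.27 for Cbln1, 0.56 to 0.73 for Nrxn2 and 1.71 to 2.79 for Nrxn3, while the genes called in all fell from 2915 to 654 without the stellate and 761 without the first pelvic library. When the sphenopalatine library was added to the other side, so that pelvic neurons were set against all 4 other ganglia, 0 of the 7 genes tested passed (edgeR, with 3 at an unadjusted p under 0.05 and 77 genes called in all). In that library Cbln4, C1ql2 and Nrxn2 lay above the pelvic levels and C1ql1 between them.

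Pelvic neurons fell into 5 clusters that were made without these 9 genes. Following marker genes listed by the study, 436 cells led by Grp, a bombesin-like peptide, were P2-like, 166 cells led by Th were P3-like, and 93 cells led by Calca and Aldh1a2, the genes of a sensory peptide and of a retinoic acid enzyme, were P4-like. A cluster of 393 cells led by Cartpt, with Vip, and one of 170 cells led by Pcp4l1 and Gng8 held too few of the markers to be named, and are called the Cartpt/Vip and the Gng8 cluster. All 5 contained cells of both pelvic libraries, after a correction between the libraries. Without it, the P3-like (132 and 33 cells) and P4-like (58 and 33) clusters still held both, and the rest divided largely by library. In that setting a cluster of 4 and 62 cells, with a median of 5631 UMIs, was led by AY036118 and the fibroblast markers Col1a1, Dcn and Lum. The median over all 365 neurons of the second pelvic library was 108598 UMIs. These shallow cells were kept among the pelvic neurons and in the 5 clusters. Their part in the values of the second library was not tested.

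**Figure D4:**
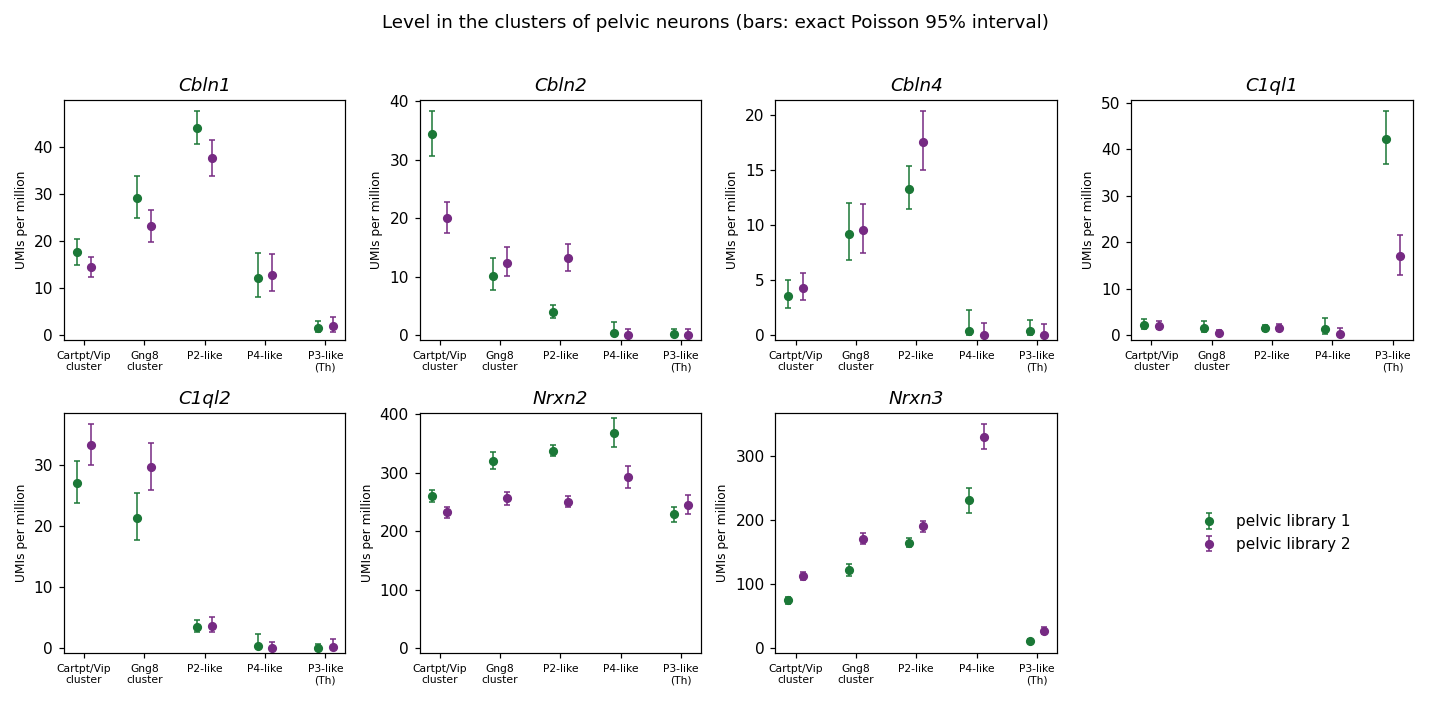
Level of each gene except C1ql3 and C1ql4 in the 5 pelvic clusters, in CPM, with 1 point for each pelvic library and exact Poisson 95% intervals. The P3-like cluster was the highest for C1ql1 and the lowest for Nrxn3, and Cbln2, Cbln4 and C1ql2 were near 0 in P3-like and P4-like neurons.

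The secreted protein genes that were detected in pelvic neurons differed among the clusters. Cbln1 was highest in P2-like neurons, at 43.9 and 37.5 CPM in libraries 1 and 2 (40.7 ± 4.53, SD, n = 2), followed by the Gng8 cluster at 29.0 and 23.1, the Cartpt/Vip cluster at 17.6 and 14.4, P4-like neurons at 12.1 and 12.8 and P3-like neurons at 1.52 and 1.85. Both libraries gave this order and no cluster overlapped another, although the counting intervals of P4-like and Cartpt/Vip neurons did. Cbln4 ran in parallel, at 13.3 and 17.5 in P2-like neurons, 9.16 and 9.54 in the Gng8 cluster and 3.60 and 4.31 in the Cartpt/Vip cluster, but it was down to 1 UMI among 93 P4-like neurons, where Cbln1 was seen in 49 of them.

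C1ql2 and Cbln2 instead had their highest levels in CPM in the Cartpt/Vip cluster. C1ql2 stood at 27.1 and 33.2 CPM there and at 21.3 and 29.6 in the Gng8 cluster, which overlapped between libraries, and at 3.56 and 3.73 in P2-like neurons. Cbln2 stood at 34.4 and 20.0 in the Cartpt/Vip cluster, 10.2 and 12.4 in the Gng8 cluster, and 3.99 and 13.2 in P2-like neurons, so that its P2-like level differed between the libraries by more than counting error. By share, C1ql2 was instead higher in the Gng8 cluster, at 42.0% and 78.4% against 39.7% and 52.5% in the Cartpt/Vip cluster. Cbln2 shares were 29.4% and 51.0% against 48.8% and 50.4%. Median depth was 53459.5 UMIs in the Gng8 and 37763 in the Cartpt/Vip cluster, and its part in these shares was not tested. P3-like and P4-like neurons, 166 and 93 cells, gave 1 UMI each of C1ql2 and of Cbln2, and 2 and 1 UMIs of Cbln4. C1ql1 was high in P3-like neurons, where Cbln1, Cbln2, Cbln4 and C1ql2 were near 0, and not in P4-like neurons: P3-like neurons held 42.3 (36.9 to 48.2) and 16.9 (13.1 to 21.6) CPM and the other 4 clusters 0.292 to 2.22, and 74 of the 166 P3-like neurons had a UMI. The P3-like level of the first library lay within the range of the sympathetic ganglia and that of the second below it.

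The neurexins also differed among the clusters. Nrxn3 was highest in P4-like neurons, at 230.4 and 329 CPM, then 165 and 189.8 in P2-like neurons, 122 and 171 in the Gng8 cluster, 74.8 and 112 in the Cartpt/Vip cluster, and 10.8 and 27.0 in P3-like neurons. This order was the same in both libraries, and the P3-like levels lay below and above the range of coeliac and stellate neurons (15.96 to 23.5). Nrxn2 ranged only from 229 to 367 over the 10 sums, and the libraries of different clusters overlapped.

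Pelvic neurons were also divided by transmitter genes, with 126 and 33 noradrenergic neurons (Th) and 760 and 325 cholinergic ones (Chat, Slc18a3, Slc5a7) in libraries 1 and 2. Noradrenergic neurons held 43.7 and 16.9 CPM of C1ql1 against 1.62 and 1.30 in cholinergic neurons, a ratio of 27.0 (19.8 to 37.4) and 13.1 (8.73 to 19.7). Cbln1, Cbln2, Cbln4, C1ql2 and Nrxn3 went the opposite way. Cbln1 stood at 1.59 and 1.85 against 30.7 and 23.3, and Nrxn3 at 9.53 and 27.0 against 135 and 172, with no overlap of the classes in any of these 3 genes. Cbln2, Cbln4 and C1ql2 gave 1, 2 and 1 UMIs in all 159 noradrenergic neurons. In the library without any, cholinergic neurons were at least 17.8-fold higher in Cbln2, 11.4-fold in Cbln4 and 22.9-fold in C1ql2 when the noradrenergic sum is set to 3 counts, and in the library with a count the ratios were 70.3 (12.6 to 2785), 21.7 (5.94 to 180) and 75.9 (13.6 to 3004).

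In the fit with library as a block (edgeR, 4 sums, 1 residual degree of freedom), C1ql1 was higher in noradrenergic neurons with a log2 difference of 4.30 (SE 0.23), where 9.16% of 14176 genes were higher (20.5% differed in either direction). Cbln1 and Nrxn3 were lower, at -4.01 (SE 0.29) and -3.20 (SE 0.18), where 11.3% of genes were. Cbln2, Cbln4 and C1ql2 passed the filter on low counts through the cholinergic neurons alone and so had to differ. Their fitted values of -6.88, -5.26 and -7.12 depend on the prior count and are given without a test. With so few sums the spread is borrowed across genes, and without the block Cbln1, C1ql1 and Nrxn3 passed with edgeR adjusted p of 0.0043, 0.0101 and 0.0212, in a fit that called 570 genes in place of 2906. Nrxn2 differed by -0.26 (SE 0.16), which did not pass (edgeR adjusted p = 0.27), and its ratio between cholinergic and noradrenergic neurons was 1.38 (1.30 to 1.46) in library 1 and 1.02 (0.95 to 1.09) in library 2.

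Many single neurons carried UMIs of more than 1 of the secreted genes. At least 2 of the 7 cerebellin and C1q-like genes were seen in 35.4% and 54.0% of pelvic neurons in libraries 1 and 2 and in 38.7% of sphenopalatine ones. Among the sympathetic ganglia the share was 6.98% (stellate), 14.8% (coeliac) and 27.8% (lumbar). Thinning to 4000 UMIs per neuron lowers this share by construction. It was then 1.68% and 2.29% in pelvic, 1.85% in sphenopalatine, and 0.518%, 0.862% and 1.24% in stellate, coeliac and lumbar neurons. The part of depth in this share was not tested. In pelvic libraries 1 and 2, Cbln2 and C1ql2 were found together in 85 and 81 neurons, where the product of their shares gives 41.3 and 47.5, and Cbln1 and Cbln4 in 127 and 104, where it gives 90.2 and 75.3. Within clusters, over both libraries, the counts were nearer to the product in P2-like neurons (138 against 129.8 for Cbln1 with Cbln4) and in the Gng8 cluster (55 against 50.1), and in the Cartpt/Vip cluster they were 38 against 23.6 for this pair and 115 against 85.9 for Cbln2 with C1ql2. In sphenopalatine neurons Cbln4 and C1ql2, the leading pair there, were together in 347 of 1903 neurons, near the 332 that the shares give. Cbln1 and C1ql1 shared 21 and 20 pelvic neurons, below the 51.7 and 25.3 from the shares. Both genes of a pair share the depth and the cluster of a neuron, whose part in these counts was not tested, and thinned counts were too few to compare.

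Genes with the most similar pattern were sought over the same 14 neuron sums among 10064 genes, as a description. C1ql1 was closest to Slc6a2 (r = 0.979), Th (0.9747) and Dbh (0.970), the noradrenaline transporter and enzymes of noradrenaline synthesis. Cbln4 was closest to Adamts2 (0.947), a procollagen protease, and C1ql2 to Tnfrsf1a (0.946), a tumour necrosis factor receptor. Cbln2 was closest to Rgs2 (0.930), a regulator of G protein signalling, Nrxn2 to Kcnj3 (0.956), a potassium channel subunit, and Nrxn3 to Tbx2 (0.946), a T-box factor. The next genes in order were Crim1 (0.896) and Mapk10 (0.869) for Cbln2, Stum (0.943) and Wwc2 (0.933) for Cbln4, Ass1 (0.938) and B230216N24Rik (0.930) for C1ql2, Ppfia4 (0.955) and Lrrn2 (0.937) for Nrxn2, and Nectin3 (0.932) and Chst2 (0.931) for Nrxn3. Cbln1 was closest to the noncoding RNA Gm2694 (0.948), whose gene at chr8:87460469-87525554 runs across Cbln1 on the opposite strand, followed by Myo16 (0.926) and Arhgap29 (0.925). Whether counting used strand is not given in the sources used here, so reads of Cbln1 and Gm2694 cannot be told apart with certainty.

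Proteins that bind the members were read from the same fits, as 29 other genes of which 27 were tested. Between neurons and glia, 12 were higher in neurons, where 37% of all genes were, and 8 in glia, where 38% were, with a median log2 difference of 0.53 against -0.02 over all genes tested. The neurexophilins Nxph4 (3.71) and Nxph3 (3.44), the scaffold gene Apba2 (3.85) and the calsyntenin Clstn3 (3.25) were higher in neurons, and Lrrtm1, a leucine-rich repeat ligand of neurexins, was higher in glia (-5.36, SE 0.55), where it stood at 247 to 309 CPM. Of 7 receptors of cerebellins and C1q-like proteins, 4 were higher in glia, among them Grid1, Adgrb3 and the kainate receptor subunit Grik2, and 2 in neurons. Adgrb3, the receptor of C1q-like proteins, stood at 59.0 to 142 CPM in glia and 24.8 to 109 in neurons.

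Between pelvic and sympathetic neurons, 7 of the 27 were higher in pelvic neurons and 2 lower (edgeR, against 10.3% and 8.23% of all genes), with a median of 0.22 against -0.02. Lrrtm2 (3.32, SE 0.51), the delta receptor gene Grid1 (2.07, SE 0.39), the neuroligin Nlgn1 (1.80, SE 0.29) and Lrrtm3 (1.68, SE 0.20) were higher, and Nxph4 (-4.01, SE 0.26) and Adgrb3 (-1.61, SE 0.17) lower. Nxph4 stood at 1.31 and 1.22 CPM in the pelvic libraries and at 16.5 to 24.7 in the sympathetic ones, and Adgrb3 at 24.8 and 28.3 against 58.4 to 109, so neither overlapped. Without the stellate library or either pelvic library, Adgrb3, Nxph4 and Clstn3 were the partners called. As above, the fits without the stellate and without the first pelvic library share their contrast.

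In pelvic noradrenergic against cholinergic neurons 4 of the 27 were higher and 6 lower (edgeR, against 9.16% and 11.3% of all genes), with a median of -0.11 against 0.00 over all genes. Nlgn1 (-5.45, SE 0.35), Lrrtm4 (-2.45, SE 0.42) and Lrrtm1 (-1.46, SE 0.31) were lower in noradrenergic neurons. Dcc (2.08, SE 0.19), the netrin receptor that also binds cerebellins, was higher. Grid1 and Nxph1 had no UMI in P3-like neurons. Whether these genes or the other partners, Nlgn1 among them, reached the filter on low counts in noradrenergic neurons was not checked. The fitted values of Grid1 and Nxph1 (-5.14 and -7.62) and that of Nlgn1 are therefore a description, although the counts of partners called include them. Nlgn1 ranged from 0.663 CPM in P3-like to 62.2 in Cartpt/Vip neurons. Without the block Nlgn1, Grid1 and Dcc were the partners called, Nlgn1 and Grid1 under the same limit.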

How the data were processed

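Dissociated cells of 6 suspensions were sequenced with 10x Genomics kits, and the deposited matrices hold raw UMI counts per gene and droplet that the authors made with Cell Ranger 6.0.1 on mm10 (submitters' processing notes). Strand use in counting is not given in the sources used here. Droplets with 1500 to 11000 genes and under 15% mitochondrial counts were kept, following the study. Neurons had a mean SCTransform value of 4 neuronal markers (Stmn2, Stmn3, Gap43, Tubb3) above 3 and a mean of 5 glial markers (among them Ttyh1, Fabp7, Cryab and Mal) below 1.15, and glia the reverse. Doublets were otherwise left in, and droplets with over 50% simulated doublets among 30 neighbours were left out as an alternative. Pelvic neurons were clustered by Louvain (resolution 0.3, 50 components, mutual nearest neighbours between libraries), and other cells at resolution 1 with no correction between libraries. Both clusterings left out the members and their partners. Noradrenergic or cholinergic neurons had at least 2 UMIs of Th or of Chat, Slc18a3 and Slc5a7 together, and more than of the other.

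UMIs were summed per library and class and tested with edgeR (quasi-likelihood, TMM, filterByExpr), two-sided, with Benjamini-Hochberg adjustment over all genes tested. The study states that the experiment was repeated for the pelvic ganglion alone, and the number of animals in a library is not given, so p-values measure the spread between these libraries. Deviations of neurons and glia of the same library from their class means correlated (0.367 to 0.607), as did those of the 2 transmitter classes (0.626), and both classes came from 1 suspension, so library was the block. For shares at equal depth, neurons were thinned to 4000 and glia to 2000 UMIs, and shallower cells were left out. Levels set against 0 used a floor of 3 counts. Likeness was computed on log2(CPM + 1) over 14 sums rather than the planned 12, because 2 pelvic clusters could not be named. Named genes are every member, the 6 called partners with the largest differences in each fit (some genes are not reported here), and the 3 most similar genes of each member with 10 CPM or more. The members and gene lists were chosen with earlier results of these data known. The scripts were tested on simulated counts. Tools were R 4.3.3, edgeR 4.0.16, DESeq2 1.42.0 (an alternative), Seurat 5.3.0, sctransform 0.4.2, Python 3.11.15, numpy 2.4.6, scipy 1.17.1, scikit-learn 1.9.0 and igraph 0.11.9.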

Additional observations from a re-analysis of the deposited data

Results flagged for a closer look

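The difference between neurons and glia in Nrxn2 was larger in round 2 than in round 1, by 1.74 on the log2 scale (SE 0.27, edgeR adjusted p = 0.025 for the interaction of class and round, chosen after seeing the data, in a fit in which 6.79% of 15601 genes were called). The log2 difference was 3.08 in round 1 alone and 4.89 in round 2 alone. Glia held 28.4, 39.2 and 38.6 CPM of Nrxn2 in the stellate, sphenopalatine and pelvic libraries of round 1 and 7.83, 6.38 and 6.96 in the coeliac, lumbar and pelvic libraries of round 2. Chemistry, cells loaded and ganglia also differ between the rounds, and their part was not tested. No other member passed this test (edgeR adjusted p 0.089 to 0.96, with Cbln4 and Nrxn3 at an unadjusted p of 0.013 and 0.025).

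Some small clusters outside the neurons, not described above, also held UMIs of the genes. All 53 of the Schwann-like cells, 54 of the neuron-like cells and 7 of the Chga and Chgb cells named here are among the cells called glia. C1ql1 stood at 449 CPM (419 to 480) in a cluster of 199 cells led by Chga and Chgb, the genes of secretory granule proteins, where 166 cells (83.4%) had a UMI and C1ql1 was itself among the leading genes. Of these cells 141 and 30 came from pelvic libraries 1 and 2, and 13, 12 and 3 from the stellate, coeliac and lumbar libraries. Its level was 599, 394, 24.7, 207 and 127 in the same order. The cluster also held 921 CPM of Th, 1347 of Dbh and 271 of the vesicular monoamine transporter gene Slc18a1, and 3.52% of its cells lay among simulated doublets. C1ql3 stood at 62.9 CPM (43.3 to 88.4) in 53 myelinating Schwann-like cells, 15 of which had a UMI. Cbln2 stood at 20.9 CPM (17.7 to 24.5) in 372 neuron-like cells that did not pass the neuron selection, 44 of which had a UMI, and 29.3% of which lay among simulated doublets. The part of doublets in these levels was not tested.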

How the results depend on the processing

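Each call was recomputed with DESeq2, library-size scaling, no low-count filter, other selections of neurons and without simulated-doublet neighbours, and those of the first 2 comparisons also without each library. The counts include members that pass the filter through 1 side alone, which was not checked for the partners. Such members were Cbln4 and C1ql3 in neurons against glia and C1ql2 in pelvic against sympathetic neurons. Between the transmitter classes they were Cbln2, Cbln4 and C1ql2. Their calls carry no test. Over all genes the main fits called 75.1%, 18.5% and 20.5%, in the same order. No member changed sign where it was called. Neurons against glia gave 8 calls among the members, 5 in round 2 alone (Cbln4 and C1ql2 fell below the filter and C1ql1 was lost) and 6 with no replicate block (of 6 tested, with Cbln4 and C1ql2 below the filter). Pelvic against sympathetic neurons gave 6, none against all 4 other ganglia (edgeR, 3 at an unadjusted p under 0.05), and 3 to 7 without 1 library, with 3 left without the stellate or the first pelvic library. The calls over all genes there were 2915, 1086 without the round covariate, 77 against all 4 ganglia and 654 to 4034 without 1 library, with 654, 761 and 829 without the stellate, first pelvic and second pelvic libraries. Partner calls there were 9, 14 with no low-count filter, 5 without the round covariate, 0 against all 4 ganglia (edgeR) and 3 to 13 without 1 library. Without the covariate, Nrxn2 and Nrxn3 were lost (adjusted p 0.14 each), DESeq2 lost Nrxn3 (0.082) and gained Cbln2 (0.041). Between noradrenergic and cholinergic neurons 6 members were called, of which Cbln1, C1ql1 and Nrxn3 carry a test. The calls of Cbln1, C1ql1 and Nrxn3 held in every alternative with a test. With 1 pelvic library left out only differences could be had. Over all genes 2906 were called, 1507 with DESeq2 and 570 with no replicate block, and the partner calls went from 10 to 3 with no replicate block (Nlgn1, Grid1 and Dcc). The cause of these changes was not tested. In pelvic against sympathetic neurons, the fits without the stellate and without the first pelvic library rest on the same contrast.

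Of 54 shares (9 genes in the neurons of 6 libraries) 34 reached 10%, and 13 did when each neuron was thinned to 4000 UMIs. By pelvic cluster 24 did, and 13 after thinning. Fewer UMIs per neuron lower each share by construction. Depth limits the comparison of C1ql3 in neurons and of C1ql4, and for the 4 ganglia with 1 library the ganglion, the round and the library cannot be told apart.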

Other observations

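Outside neurons and glia, fibroblast-like, endothelial-like, mural-like and macrophage-like cells held low levels of most of the 9 genes. Nrxn2 stood at 17.0 to 22.5 CPM in these 4 classes and Nrxn3 at 3.21 to 7.30. C1ql1 ranged from 2.22 to 4.82, and Cbln1, Cbln2, Cbln4, C1ql2 and C1ql4 stayed at or under 0.743.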
